A study of Mus musculus with 6 samples.

Results

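Binding of KLF3 and of 2 mutant forms was examined at 8 genes of cholesterol and lipid metabolism, namely Stard4, Hmgcs1, Insig1, Srebf2, Sqle, Abca1, Npc1 and Scd2. Every peak that the authors assigned to one of these genes, as the nearest one, was taken from the table of all peaks. This gave 13 of 22188 peaks, at 5 of the 8 genes: 3 each at Stard4, Srebf2, Scd2 and Insig1, and 1 at Abca1. Hmgcs1, Sqle and Npc1 had no peak in that table. Of the 13 sites, 2 lay in promoters, 4 in introns, 5 between genes, 1 in a 5′ UTR and 1 in a 3′ UTR.

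The cells were murine embryonic fibroblasts (MEFs) of strain C57BL/6. All of them were Klf3-/- and had been transduced with a retrovirus for Klf3-V5, ΔDL-V5 or DBD-V5. ΔDL carries a substitution in the motif through which KLF3 contacts the corepressor CtBP, and DBD lacks the N-terminal domain but keeps the zinc fingers. Chromatin immunoprecipitation (ChIP) used an antibody against V5, in 2 biological replicates per construct with paired inputs, on cells grown in DMEM with FCS and PSG. Each construct was carried by a stable clonal line, so the construct and the clone cannot be told apart. Occupancy was measured and not transcription, so the marker genes of the cell type could not be checked here.

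Cells obtain cholesterol by synthesis from acetyl-CoA and by uptake of lipoproteins. SREBP2, the product of Srebf2, is held in the endoplasmic reticulum by the INSIG proteins when sterols are plentiful, and is otherwise carried to the Golgi and cleaved, after which it activates genes of synthesis and uptake. Hmgcs1 and Sqle encode enzymes of that synthesis, Stard4 a soluble carrier of sterols, Npc1 the protein that exports cholesterol from late endosomes, Abca1 the efflux pump that loads apolipoprotein A-I, and Scd2 a stearoyl-CoA desaturase.

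Sequences at sites of Srebf2 and Scd2 are shown first to place the letters of the KLF consensus. All are from mm9, on the plus strand, 5′ to 3′. Capitals mark the 4 six-letter forms of the KLF core on either strand. The forms that begin with A are ACACCC in one version and ACGCCC in the other, and those that begin with C are likewise CCACCC in one version and CCGCCC in the other. The first sequence holds the Srebf2 promoter from the start of the outermost call to the base before the GENCODE start. The 2 sites in UTRs are given as 30 bases around the match.
Srebf2 promoter, chr15:81977443-81977695: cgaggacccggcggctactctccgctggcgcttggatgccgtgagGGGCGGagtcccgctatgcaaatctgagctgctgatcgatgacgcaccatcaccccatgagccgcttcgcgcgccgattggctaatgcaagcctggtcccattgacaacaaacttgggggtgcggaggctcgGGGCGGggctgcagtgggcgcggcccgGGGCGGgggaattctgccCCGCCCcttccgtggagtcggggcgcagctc
Scd2 upstream site, chr19:44341514-44341613: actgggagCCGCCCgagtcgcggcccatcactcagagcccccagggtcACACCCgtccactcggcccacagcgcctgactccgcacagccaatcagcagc
Scd2 first exon, chr19:44368390-44368419: gggaggagggggGGGCGGagctggaggcag
Srebf2 upstream site in Ccdc134, chr15:81972085-81972114: agtgtcctgagaGGGTGTttatttcaagga

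At the Srebf2 promoter the 100 bp around the peak centre held none of the 4 forms, but held the shorter letters CACCC 2 times over both strands. The 253 bases printed held 4 matches to the 4 forms and the full peak interval held 7. The 4 printed matches lie on either side of the centre. The site at −26603 bp from Scd2, a CpG-rich intergenic peak, held 2 matches in its central 100 bp. Over the 13 sites, 7 had a match within 100 bp of sequence at the centre (53.8%), compared with 40.2% of all peaks and 83.2% of the 4452 promoter peaks. In the 400 bp intervals the counts were 11 of 13 (84.6%), against 60.0% of all peaks. The shorter form CACCC, which overlaps ACACCC and CCACCC, was found at 6 of 13 centres (46.2%) and at 26.9% of all centres. Of the 13 sites, 11 were listed for KLF3, and peaks so listed held these letters more often than all peaks. Of these 11 sites, 7 had a KLF match at the centre (63.6%), beside 57.6% of all peaks listed for KLF3. In 400 bp the counts were 10 of 11 (90.9%), beside 76.3%. CACCC was at 6 of 11 centres (54.5%), beside 35.95%. These shares were given no test. The letters TCACNCCAC, a form of the sterol regulatory element searched on both strands, were in none of the 13 intervals and in 1.53% of all peaks. The NF-Y motif CCAAT was in 8 of 13 (61.5%) and 44.1%. The Srebf2 promoter printed above holds tcaccccat, which differs from TCACNCCAC in the last letter only. No match says only that those letters are not in these windows.

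The largest KLF3 peak of the group was at the Srebf2 promoter, on chr15:81977371-81977771 of mm9, centred −128 bp from the annotated TSS. Srebf2 spans chr15:81977696-82035806 on the plus strand. The height, which is the number of tags in 400 bp scaled to 100 M tags with both replicates combined, reached 1243 with KLF3, 815 with ΔDL and 61.8 with DBD. By KLF3 height this was rank 40 among 4452 promoter peaks. The difference on the log2 scale was −0.61 for ΔDL, with a 95% interval from −0.96 to −0.27, and −4.33 for DBD, from −5.61 to −3.52. These intervals are exact conditional intervals on 289, 96 and 9 tags, and cover counting error only. Heights combine the replicates and give no test over them. Replicate 2 supplied most of the tags, with 18.1 M against 5.46 M for KLF3 and 10.2 M against 1.77 M for ΔDL. The scores of single replicates are compared further on.

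In the replicate lists the score of a call is the number of tags per 100 M in the call itself, which is 123 to 143 bp wide. At the Srebf2 promoter the scores were 806 and 636 in the KLF3 replicates (44 and 115 tags) and 623 and 342 in the ΔDL replicates (11 and 35 tags). Every KLF3 score was above both ΔDL scores, with means of 721 ± 120 (SD, n = 2) and 483 ± 199 (SD, n = 2). The ΔDL replicate 1 call (chr15:81977443-81977575) did not overlap the KLF3 replicate 1 call (chr15:81977578-81977700). It overlapped the KLF3 replicate 2 call only in part, so the scores are not of the same stretch. Neither DBD replicate was called. The gap between the nearest scores, 636 and 623, was small beside the range within either construct.

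A second Srebf2 site lay in intron 1, on chr15:81994994-81995394, +17495 bp from the TSS. Its heights were 209 (KLF3), 265 (ΔDL) and 26.2 (DBD). KLF3 was called in both replicates, with scores of 220 and 138, and ΔDL in replicate 2 only, with 166. The authors listed it for KLF3 alone, although the ΔDL height was not below the KLF3 height. The difference between ΔDL and KLF3 was 0.34 on the log2 scale, with an interval from −0.35 to 1.03.

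The third Srebf2 site, at −5610 bp, lay on chr15:81971889-81972289 in the 3′ UTR of the neighbouring gene Ccdc134. It was one of 2 sites in the group listed for DBD, and the only one of the 13 called in all 6 lists. The heights were 126 (KLF3), 212 (ΔDL) and 117 (DBD). The KLF3 replicates scored 238 and 77.4, those of ΔDL 453 and 156, and those of DBD 115 and 119. The KLF3 range overlapped that of both mutants, while both ΔDL scores were above both DBD scores, and the KLF3 calls rested on 13 and 14 tags. The ΔDL replicate 1 score of 453 rested on 8 tags, in a library where a single tag is worth 56.6 per 100 M.

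**Figure D1:**
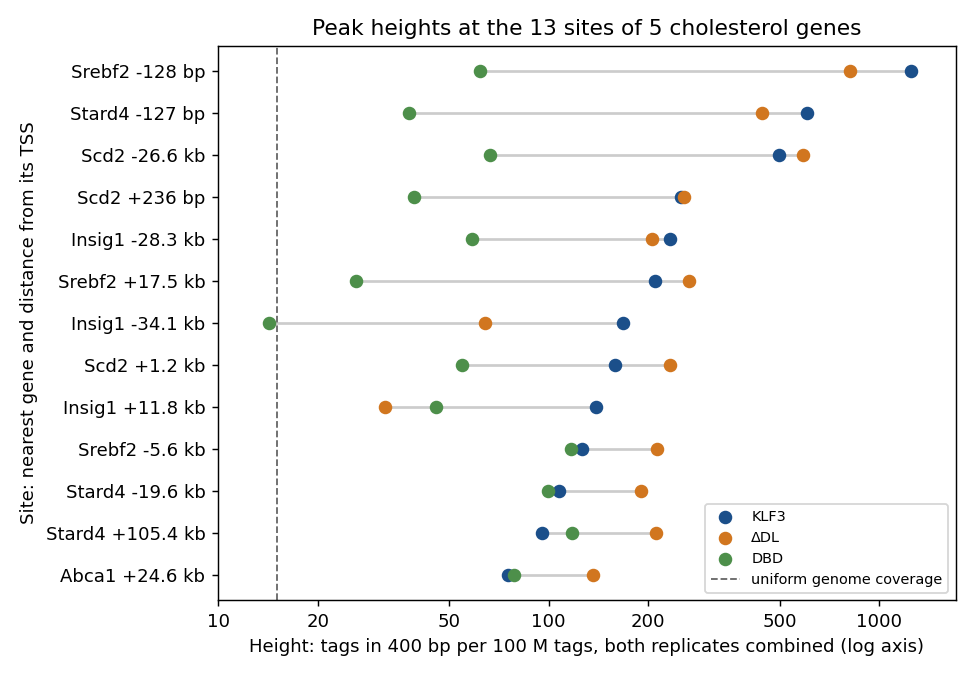
Heights at the 13 sites, in tags per 400 bp scaled to 100 M tags with both replicates combined, on a log axis; sites are ordered by KLF3 height, colours give the construct and the dashed line marks the 15.1 tags of uniform genome coverage. The KLF3 and ΔDL points lie within 2-fold of each other at 10 sites, and DBD lies 2-fold or more below KLF3 at all but the 4 sites with the lowest KLF3 height.

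Scd2 spans chr19:44368166-44381354 on the plus strand and had 3 sites. The strongest was intergenic, on chr19:44341363-44341763, with heights of 498 (KLF3), 588 (ΔDL) and 66.3 (DBD). Its G+C content of 67.1% was the highest of the 13 sites, compared with a median of 44.9% for all peaks. Scores were 183 and 238 in the KLF3 replicates (10 and 43 tags) and 340 and 303 in the ΔDL replicates (6 and 31 tags), so both ΔDL scores were above both KLF3 scores. The ΔDL replicate calls did not overlap each other, and the authors listed the site for KLF3 alone. The ΔDL replicate 1 call (chr19:44341662-44341794) overlapped the 400 bp interval of the site but neither KLF3 call, so its score is of a different stretch. The height differed by 0.24 on the log2 scale between ΔDL and KLF3, with an interval from −0.21 to 0.68.

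The other Scd2 sites were close to the start of the gene. The site in the 5′ UTR, on chr19:44368202-44368602, had heights of 251, 256 and 39.1 in the same order. The site in intron 1, on chr19:44369143-44369543, had 159, 232 and 54.6. Both were called in both KLF3 replicates (165 and 133 for the 5′ UTR, 128 and 94.0 for intron 1) and in ΔDL replicate 2 only (127 and 147). Neither was called in DBD.

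Insig1 spans chr5:28397952-28405201 on the plus strand, and its product retains the SREBP complex in the endoplasmic reticulum. Its 3 sites all lay outside the gene and were listed for KLF3 alone. Of the 13 sites, 2 of these had the lowest ΔDL signal relative to KLF3. At +11836 bp (chr5:28409588-28409988) the heights were 139 (KLF3), 32.0 (ΔDL) and 45.6 (DBD). At −34061 bp (chr5:28363691-28364091) they were 168, 64.0 and 14.2, so that the DBD height was below the uniform level of 15.1. At −28254 bp (chr5:28369498-28369898) they were 232, 205 and 58.5. GENCODE places both upstream sites within Gm16719, while the deposited annotation has them as intergenic.

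The sites at +11836 bp and −34061 bp were the only 2 of the 13 where the ΔDL height fell 2-fold or more short of KLF3. The log2 differences were −2.12, with an interval from −4.79 to −0.76, and −1.39, from −2.87 to −0.28. Few tags lay behind them, with 32 and 38 for KLF3 and 3 and 7 for ΔDL. No ΔDL replicate called either site, whereas both KLF3 replicates called both, with scores of 147 and 82.9 at +11836 bp and 165 and 71.9 at −34061 bp. At −28254 bp ΔDL replicate 2 had a call of 108, between the KLF3 scores of 202 and 88.5.

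Abca1 had a single site, in intron 2, on chr4:53147918-53148318, +24649 bp from the TSS of a gene that spans chr4:53043659-53172767 on the minus strand. It was listed for ΔDL alone. The heights were 75.1 (KLF3), 136 (ΔDL) and 78.8 (DBD), and the KLF3 height was the lowest of the 13. The ΔDL scores were 283 and 87.9, from 5 and 9 tags, and no KLF3 or DBD replicate was called. The difference of 0.86 between ΔDL and KLF3 had an interval from −0.19 to 1.96.

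Sequences at the sites that differ most between KLF3 and ΔDL, and at the one listed for ΔDL alone, are given for comparison with the promoters above, as 100 bases around each centre on the plus strand of mm9 with the same 4 forms in capitals.
Insig1 far upstream site, chr5:28363842-28363941: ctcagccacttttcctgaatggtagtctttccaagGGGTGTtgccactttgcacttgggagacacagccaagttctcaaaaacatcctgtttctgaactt
Insig1 downstream site, chr5:28409739-28409838: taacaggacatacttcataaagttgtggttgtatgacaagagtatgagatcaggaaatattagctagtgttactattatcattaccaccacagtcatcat
Abca1 intron 2 site, chr4:53148069-53148168: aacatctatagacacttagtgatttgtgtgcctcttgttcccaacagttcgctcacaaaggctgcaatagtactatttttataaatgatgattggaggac

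Of these, the Insig1 site at −34061 bp alone holds a match. The G+C content of the full intervals was 51.9% at that site, 42.9% at +11836 bp and 42.4% at Abca1, each below the 66.3% at the Srebf2 promoter.

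Sqle and Insig1 carried promoter calls in both KLF3 replicates that have no counterpart in the table of all peaks. The authors merged calls that overlapped, and these did not. At Sqle, which encodes squalene epoxidase and spans chr15:59146632-59162747, the call was centred at −140 bp in replicate 1 and at −388 bp in replicate 2, with 115 bp between them. The scores were 220 (12 tags) and 232 (42 tags). At Insig1 the centres were −335 bp and −181 bp, with 21 bp between the calls and scores of 147 (8 tags) and 122 (22 tags). In KLF3 replicate 2, the deeper of the pair, the Sqle score was exceeded at 3 of the 11 sites listed for KLF3, which were the Srebf2 and Stard4 promoters and the Scd2 upstream site.
Insig1 promoter, both calls, chr5:28397556-28397842: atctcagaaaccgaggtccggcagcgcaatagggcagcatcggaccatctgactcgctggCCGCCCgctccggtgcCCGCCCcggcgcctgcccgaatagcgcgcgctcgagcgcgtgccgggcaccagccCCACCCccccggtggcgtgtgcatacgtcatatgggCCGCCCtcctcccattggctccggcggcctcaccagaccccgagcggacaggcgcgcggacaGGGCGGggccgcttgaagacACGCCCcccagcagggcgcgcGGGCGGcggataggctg
Sqle promoter, KLF3 replicate 2, chr15:59146188-59146330: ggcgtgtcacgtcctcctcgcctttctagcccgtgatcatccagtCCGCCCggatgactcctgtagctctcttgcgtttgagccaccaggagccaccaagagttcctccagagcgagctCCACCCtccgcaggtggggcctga
Sqle promoter, KLF3 replicate 1, chr15:59146446-59146568: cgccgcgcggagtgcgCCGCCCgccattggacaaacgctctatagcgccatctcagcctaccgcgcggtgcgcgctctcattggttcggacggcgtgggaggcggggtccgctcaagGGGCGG

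The Insig1 run is the whole stretch covered by both calls and the gap, with 7 matches in 287 bases and a G+C content of 73.9%. Each Sqle call held 2 matches, and the replicate 1 call also held 2 CCAAT motifs. Among all promoter calls of KLF3 replicate 1, 79.6% met a replicate 2 call, and 8.61% lay within 200 bp of one without meeting it, as at Sqle and Insig1. No ΔDL or DBD replicate had a promoter call at either gene. ΔDL replicate 2 was called at −3510 bp from Sqle (156) and at +547 bp within Insig1 (87.9). Heights are given only for merged peaks, so ΔDL and DBD had no value at these promoters.

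**Figure D2:**
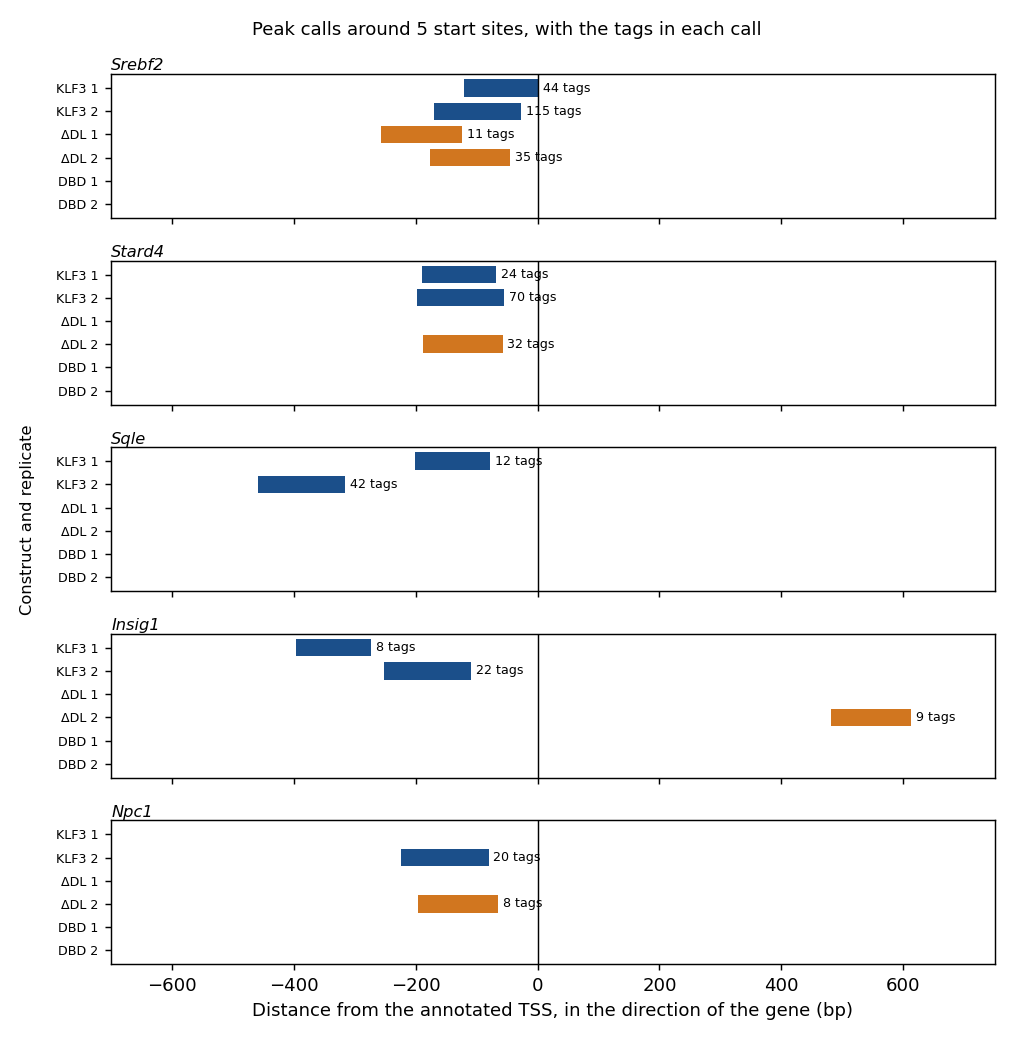
Calls in the 6 replicate lists around 5 start sites, by distance from the annotated TSS in bp in the direction of the gene; each bar is a call at its width, with its number of tags. The KLF3 bars overlap at Srebf2 and Stard4, and are separated by 115 bp at Sqle and 21 bp at Insig1.

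Hmgcs1, the cytosolic HMG-CoA synthase, was named in none of the 6 replicate lists. The gene is also not among those in the GENCODE annotation of this build. Its 300-base RefSeq promoter (GRCm38.p6) matched the mm9 assembly exactly at 2 places, both on contigs that are not placed on an assembled chromosome, and at 0 places on assembled chromosomes. All peaks in the lists are on assembled chromosomes. Occupancy at the Hmgcs1 promoter was therefore not analysed here, and the lack of a peak is no measure of it.

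The 2 remaining genes lie on chromosome 18. Npc1, which spans chr18:12348202-12394909 on the minus strand, had a promoter call in KLF3 replicate 2 at −152 bp (111, 20 tags) and in ΔDL replicate 2 at −130 bp (78.2, 8 tags). It had none in the other replicate of either construct or in DBD, and so no merged peak.

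Stard4 spans chr18:33359009-33373516 on the minus strand. At its promoter peak, −127 bp from the TSS, the heights were 605 (KLF3), 443 (ΔDL) and 37.8 (DBD). ΔDL and DBD differed from KLF3 by −0.45 (interval −0.94 to 0.02) and −4.00 (−5.91 to −3.01) on the log2 scale. Scores were 440 and 387 for KLF3 and 313 for ΔDL replicate 2, and ΔDL replicate 1 was not called. In that library a single tag is worth 56.6 per 100 M, and its calls hold at least 4 tags. DBD was called in neither replicate.

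The distal Stard4 sites were unlike the promoter. At −19616 bp (chr18:33392886-33393286) the heights were 108 (KLF3), 190 (ΔDL) and 99.7 (DBD). At +105379 bp (chr18:33267891-33268291), which is in intron 3 of Camk4, they were 95.7, 211 and 118. With the deposited scaling, the latter was the only site of the 13 at which ΔDL was at least 2-fold higher than KLF3, by 1.14 on the log2 scale with an interval from 0.21 to 2.01. It was called in both replicates of ΔDL (397 and 127) and DBD (115 and 107), and in KLF3 replicate 1 (183). The G+C content was 34.2% at the first and 37.2% at the second, and neither interval held a KLF match.

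**Figure D3:**
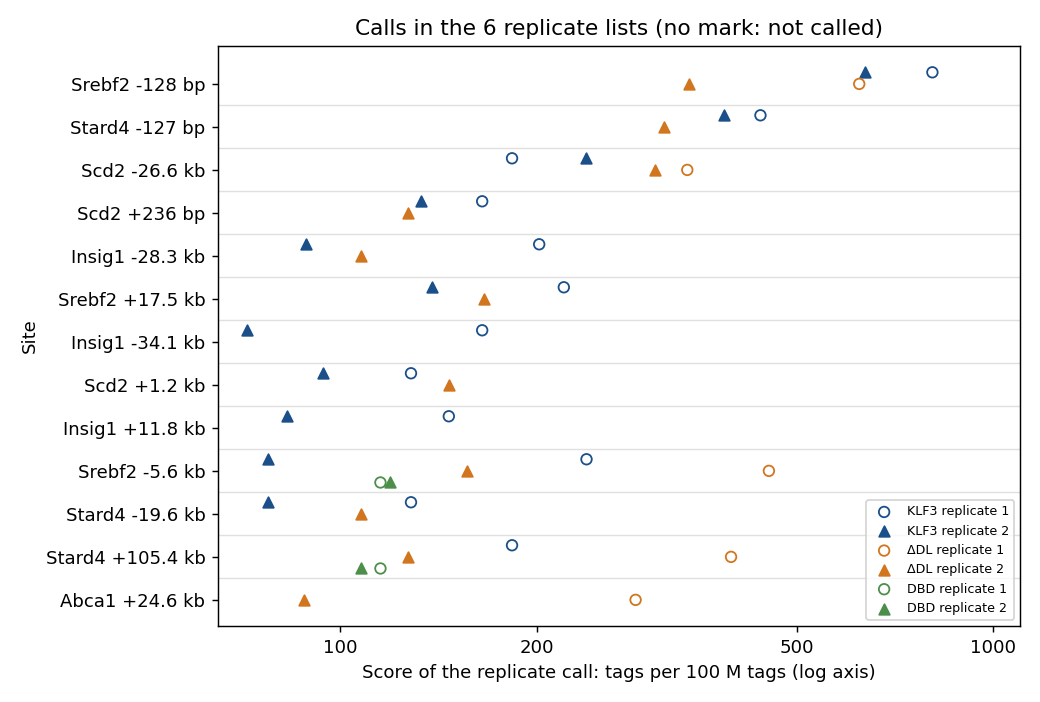
Scores of the calls in the 6 replicate lists at the 13 sites, in tags per 100 M tags on a log axis, with open circles for replicate 1 and triangles for replicate 2; a construct without a mark was not called. Only the Srebf2 site at −5.6 kb carries all 6 marks, and DBD marks appear at 2 sites.

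Over the 13 sites, the ΔDL height was 2-fold or more below KLF3 at 2, compared with 14.9% of all peaks, and 2-fold or more above it at 1, compared with 28.9%. DBD was at least 2-fold lower at 9, compared with 52.6% of all peaks, and at least 2-fold higher at 0, compared with 3.27%. The median difference was 0.24 for ΔDL and −1.99 for DBD on the log2 scale, beside 0.42 and −1.45 over all 22188 peaks. Of the 13 sites, 9 entered through a listing for KLF3 alone, as did 9418 of the 22188 peaks, and such a selection favours lower mutant heights. The ΔDL interval excluded 0 at 4 sites, which were the Srebf2 promoter and 2 Insig1 sites, all lower, and the Stard4 site in Camk4, which was higher. For DBD the interval lay below 0 at all 9 sites past 2-fold, and included 0 at the other 4.

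The direction of the ΔDL differences depended on the scaling. When heights were scaled to equal medians over the 2334 peaks called for all 3 constructs, which moves ΔDL by −1.06 and DBD by −0.42, ΔDL was lower at 12 of 13 sites and at least 2-fold lower at 6. Over all peaks the share at least 2-fold lower was then 42.8%, and the share at least 2-fold higher was 0.397%. On this scale the Stard4 site in Camk4 differed by 0.08. The count for DBD remained 9. The peaks used for this scaling were listed for all 3 constructs, and so were selected on mutant as well as KLF3 signal. Whether their medians should be equal was not tested.

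The authors listed 11 of the 13 sites for KLF3 (63.6% of all peaks), 4 for ΔDL (55.2%) and 2 for DBD (22.3%). Presence in a list and height did not rank the constructs alike. At 9 sites listed for KLF3 alone, the ΔDL minus KLF3 difference ranged from −2.12 to 0.82 on the log2 scale. ΔDL replicate 2 called 11 of the 13 sites and replicate 1 called 5. The shares of all peaks called in each replicate were not tabulated, so these counts are only a description of the sites. The replicates of ΔDL were of unequal depth, with 1.77 M and 10.2 M tags behind the scores.

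**Figure D4:**
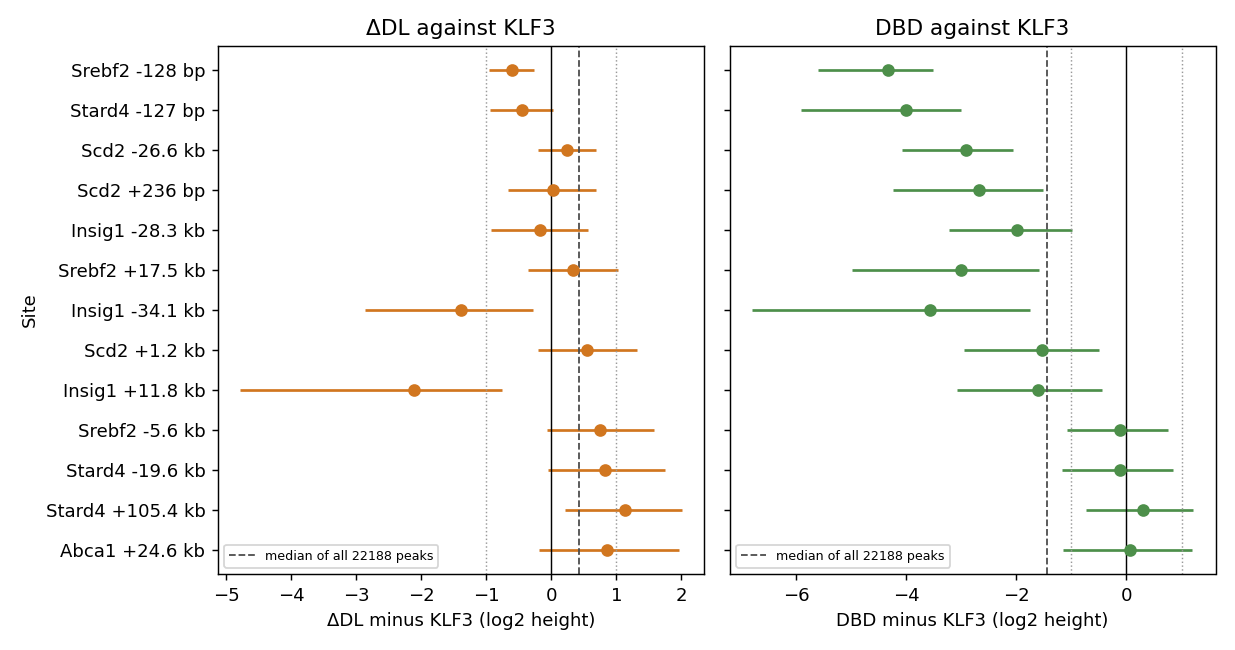
Difference in log2 height from KLF3 for ΔDL (left) and DBD (right) at the 13 sites, ordered by KLF3 height; bars are 95% exact conditional intervals that cover counting error only, dotted lines mark 2-fold and dashed lines the median over all 22188 peaks. The ΔDL points lie within 2-fold of KLF3 at 10 sites, and DBD falls past 2-fold at 9.

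The 4 sites at which DBD was within 2-fold of KLF3 were also the 4 with the lowest KLF3 heights, from 75.1 to 126, and the 4 with the highest ΔDL signal relative to KLF3, with differences from 0.75 to 1.14. They were the Abca1 intron, the distal Stard4 sites and the Srebf2 site in Ccdc134. Both differences have the KLF3 height as their base, so these properties are not independent. The DBD heights there, from 78.8 to 118, were also higher than the 14.2 to 66.3 at the other 9 sites. Their G+C content ranged from 34.2% to 51.1% and that of the 9 from 42.9% to 67.1%. Over the whole table the median was 37.7% for peaks listed for DBD and 47.9% for the others.

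Scores of single replicates could be set side by side only at sites called in every list of both constructs. This choice selects on the mutant's own signal, and leaves out most of the 11 sites called in both KLF3 replicates. For ΔDL 3 sites entered, the Srebf2 promoter, the Srebf2 site in Ccdc134 and the Scd2 upstream site. At the Srebf2 promoter the ΔDL replicate 1 call did not overlap the KLF3 replicate 1 call. At the Scd2 upstream site the ΔDL replicate 1 call overlapped neither KLF3 call. The mean log2 score over the 3 sites was 8.09 ± 0.37 (SD, n = 2) in KLF3 and 8.41 ± 0.60 (SD, n = 2) in ΔDL (p = 0.667, two-sided exact permutation test). Calls in ΔDL replicate 1 held at least 4 tags, worth 56.6 each. Those in the KLF3 replicates held at least 5 tags worth 18.3 each and at least 13 worth 5.53 each. The lowest possible score was thus higher in ΔDL replicate 1, and the effect of this on the means was not tested. The smallest p that 2 against 2 replicates allow is 0.333, so this test could not reach significance and says nothing of the sites that were left out. For DBD the single site was that in Ccdc134, with a difference of −0.21 (p = 1 by the same exact test). In the replicate lists the 8 genes had 16 of 26772 and 16 of 23872 calls with KLF3 (0.0598% and 0.0670%). They had 5 of 17206 and 23 of 32624 calls with ΔDL (0.0291% and 0.0705%), and 2 of 9156 and 2 of 8105 with DBD (0.0218% and 0.0247%). The second ΔDL replicate held the most calls, and the members' share in it was above that in both KLF3 lists.

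The 6 lists together held 64 calls at the 8 genes, in 33 places, of which 19 did not overlap a peak of the table. In 10 of those 19 ΔDL replicate 2 was alone, and 2 were called in a pair of lists. One of the pairs was the Npc1 promoter. The other was −9516 bp from Scd2, called at 144 in KLF3 replicate 2 and 127 in ΔDL replicate 2. Abca1 had further single calls at −36273 bp (KLF3 replicate 2, 105) and +51488 bp (ΔDL replicate 2, 87.9).

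The other genes of the pathway were described in the same way, from 4 lists of 65 genes. Of these, 36 genes had 50 peaks, and 20 of the peaks were in promoters, all of them listed for KLF3. Of the 20, 4 were also listed for ΔDL and 0 for DBD, a selection that favours lower mutant heights. Of all peaks, 55.2% were listed for ΔDL and 22.3% for DBD, and the shares over promoter peaks were not tabulated. The authors reported far fewer promoter peaks for ΔDL than for KLF3, and almost none for DBD. At the 20 promoters ΔDL was at least 2-fold lower at 7, compared with 33.7% of all promoter peaks, and at least 2-fold higher at 0, compared with 0.854%. DBD was at least 2-fold lower at 19, compared with 97.3%. The median differences were −0.65 for ΔDL and −3.37 for DBD, beside −0.68 and −2.99 over all promoter peaks. With heights scaled to the shared peaks, ΔDL was at least 2-fold lower at 15 of the 20, compared with 85.3% of all promoter peaks, and the 5 promoters at which ΔDL had been above KLF3 (Pmvk, Osbp, Fdps, Faf2 and Fdft1) fell below it. The promoters of Srebf2 and Stard4 were both within 2-fold for ΔDL and past it for DBD with the deposited scaling.

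Among 19 other enzymes of cholesterol synthesis, 9 had peaks and 6 had promoter peaks, none of which was 2-fold lower in ΔDL with the deposited scaling (33.7% of all promoter peaks were). With heights scaled to the shared peaks 3 of the 6 were (85.3% of all promoter peaks). Fdft1 (squalene synthase) had the highest KLF3 height, 553, with 680 for ΔDL and 32.0 for DBD. Fdps (farnesyl diphosphate synthase) had 375, 501 and 26.2. Both were listed for ΔDL as well as KLF3. Tm7sf2 (a sterol reductase), Idi1 (isopentenyl diphosphate isomerase) and Lss (lanosterol synthase) differed by −0.57, −0.65 and −0.65 in ΔDL. With the deposited scaling Pmvk (phosphomevalonate kinase) differed by 0.85 in ΔDL, with an interval from 0.19 to 1.49, and differed by −0.53 in DBD, the one promoter of the 20 where DBD was within 2-fold.

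Of 9 genes of SREBP processing and sterol sensing, 7 had peaks and 3 had promoter peaks. With the deposited scaling ΔDL was at least 2-fold lower at 1 of the 3, compared with 33.7% of all promoter peaks. With heights scaled to the shared peaks it was so at 2, compared with 85.3%. The promoter past 2-fold with the deposited scaling was that of Rnf139, a ubiquitin ligase of the endoplasmic reticulum. Its heights were 184 (KLF3), 78.8 (ΔDL) and 29.0 (DBD). The ΔDL difference of −1.22 had an interval from −2.47 to −0.18. Scap, the escort of SREBP, differed by −0.96, and Faf2 by 0.35.

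Of 25 genes of uptake, transport and storage, 14 had peaks and 8 had promoter peaks. With the deposited scaling 4 of the 8 were at least 2-fold lower in ΔDL, compared with 33.7% of all promoter peaks. With heights scaled to the shared peaks 7 were, compared with 85.3%. Osbpl2, an oxysterol-binding protein relative, had heights of 1082 (KLF3), 267 (ΔDL) and 53.1 (DBD), and Soat1, which esterifies cholesterol for storage, had 556, 185 and 34.3. Their ΔDL differences were −2.02 (interval −2.63 to −1.50) and −1.59 (−2.38 to −0.97). Npc2, the luminal partner of Npc1, differed by −1.05. Lrp1, an endocytic receptor, differed by −0.21, Stard3nl by −0.64, and Osbp, a sterol carrier at membrane contacts, by 0.47.

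Of 12 genes of fatty acid desaturation and synthesis, 6 had peaks and 3 had promoter peaks. With the deposited scaling 2 of the 3 were at least 2-fold lower in ΔDL, compared with 33.7% of all promoter peaks. With heights scaled to the shared peaks all 3 were, compared with 85.3%. The ΔDL difference was −2.61 at Elovl1, an elongase, and −0.76 at Acly, the source of cytosolic acetyl-CoA. Fads3, of the fatty acid desaturase family, was exactly at the 2-fold limit, with heights of 760 (KLF3), 380 (ΔDL) and 32.4 (DBD). No replicate-level test was available for any of these promoters from the heights.

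**Figure D5:**
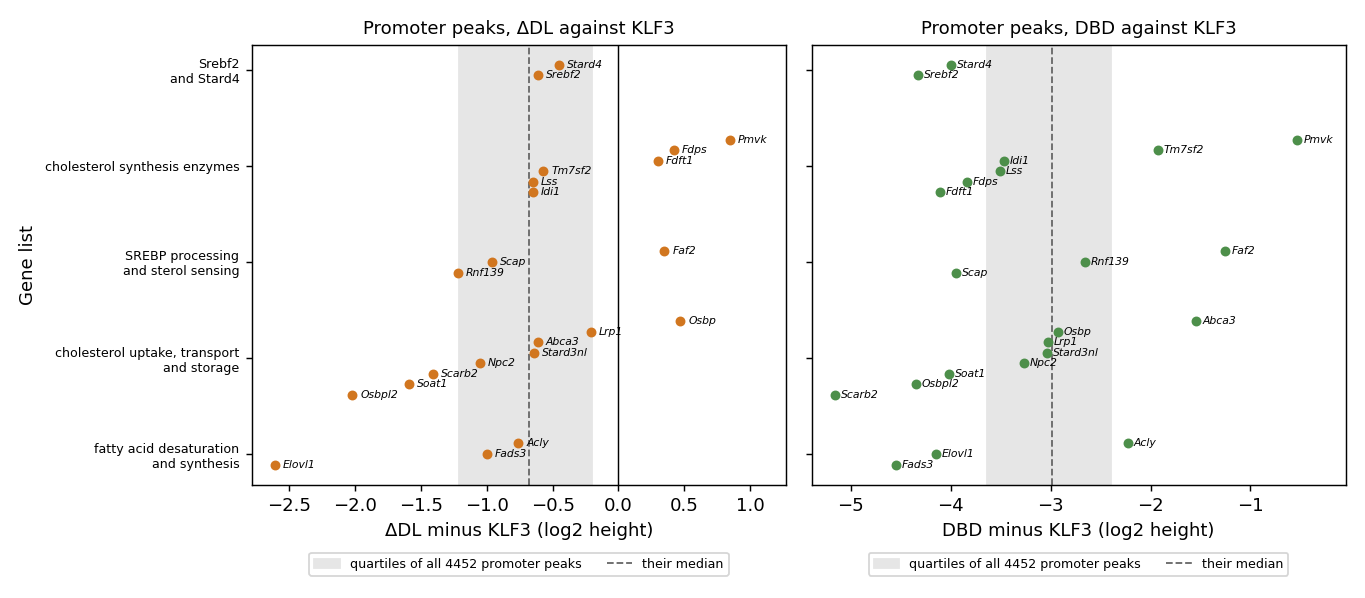
Difference in log2 height from KLF3 at promoter peaks, for ΔDL (left) and DBD (right), with a point per peak grouped by gene list; grey bands give the quartiles and dashed lines the median of all 4452 promoter peaks. Srebf2 and Stard4 lie near the ΔDL median, while Osbpl2 and Elovl1 lie below −2 in ΔDL.

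The promoter peaks whose 3 heights were most like those at the Srebf2 promoter, by Euclidean distance on the log2 scale over KLF3, ΔDL and DBD, were at Mll1 (distance 0.094), Ppat (0.26) and Osbpl3 (0.27). Their KLF3 heights on that scale were 10.36, 10.14 and 10.18, beside 10.28 for Srebf2. The likeness is over 3 values and was given no test.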

How the data were processed

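Reads of 50 bp were mapped by the authors to mm9 with Bowtie2 2.0.0 and SAMtools 0.1.18, per the labels and methods. Peaks were called in each replicate with HOMER 4.1, requiring 5-fold enrichment over input and surroundings at a false discovery rate of 0.001. Replicate peaks that overlapped were merged. The deposited heights are log2 values of the tags within 400 bp, pooled by the authors over both replicates and scaled to 100 M tags. The deposited peak score of a replicate list is a signal, given by the authors as the call's tags per 100 M. The G+C content is a fraction that the authors computed, and the deposited conservation score was read but is not reported. Input libraries entered only through the peak calling.

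Heights were used as deposited. Identical intervals in the merged and the full table differed by a median of 0.32 tags, so numbers of tags hold to about 1 tag. Combined totals were 23.3 M (KLF3), 11.8 M (ΔDL) and 16.0 M (DBD). Scores were whole multiples of 1 tag, which gave 5.46 M and 18.1 M tags (KLF3 replicates 1 and 2), 1.77 M and 10.2 M (ΔDL) and 7.81 M and 8.38 M (DBD). Each of these totals is below the number of mapped reads that the paper gives for that library. Depth here means these tags, and why they are fewer was not tested. Calls and peaks were matched by an overlap of at least 1 bp. Between 502 and 509 calls per list were checked against the genome, and all had the deposited G+C content.

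Ratios of tags have 95% exact conditional (Clopper-Pearson) intervals that cover counting error only. Replicate scores were tested by two-sided exact permutation. The genes named are all 8 members, and of the other pathway genes at most 6 per list with a promoter peak, in order of KLF3 height. For likeness, the 3 nearest promoter peaks of other genes are named. A result on 1 gene of these lists is not reported here, and the counts leave that gene out. The members and lists were chosen with earlier results of these data known, and the TCACNCCAC and CCAAT searches were added after seeing the data. Alternatives were another scaling, a 1.5-fold limit, peaks within 10000 bp of a TSS, other overlaps, the upper part of each list, single replicates and other motif windows. The code was tested on simulated data. The work used Python 3.11.15, pysam 0.24.0, scipy 1.17.1, numpy 2.4.6, matplotlib 3.10.9 and pandas 2.3.3.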

Additional observations from a re-analysis of the deposited data

How the results depend on the processing

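Sites at least 2-fold lower in ΔDL than KLF3, 2 of 13 in the report, numbered 6 when heights were scaled to the median of shared peaks, and 0 within 10 kb of a TSS, where fewer sites enter. Those at least 2-fold higher numbered 0 with that scaling and 4 at 1.5-fold. Those at least 2-fold lower in DBD numbered 4 within 10 kb, which is every site there except the Srebf2 site in Ccdc134. They numbered 9 with the scaling and at 1.5-fold. Sites called in both replicates were 11 (KLF3), 5 (ΔDL) and 2 (DBD), with no share over all peaks tabulated beside them. In the upper part of each list by score these were 5, 4 and 0. Without a replicate they ranged from 11 to 12 for KLF3, from 5 to 11 for ΔDL and from 2 to 2 for DBD. For ΔDL it was the shallow replicate 1 whose omission gave 11. A common length of at least 200 bp could not be asked of the calls, all of which are shorter, and with calls widened to 400 bp, an alternative chosen after seeing the data, the counts were 11, 5 and 2. A KLF match was found at 11 sites in 400 bp in place of 7 in 100 bp. Under the scaling, 11 of 13 ΔDL differences moved outside their counting intervals and none of the DBD differences did, and no difference past 2-fold changed sign. Replicate scores gave 12 of 13 ΔDL values and 3 of 3 DBD values within those intervals. Pairing replicates by the number in their list names, chosen after seeing the data, left the mean score differences at 0.32 (ΔDL, 3 sites) and −0.21 (DBD, 1 site), with p = 0.5 and p = 1 by an exact sign-flip test, whose smallest p is 0.5. No label ties same-numbered replicates of different constructs. Without a replicate the differences ranged from 0.16 to 0.48 (ΔDL) and from −1.05 to 0.62 (DBD), the DBD value changing sign without replicate 1. Depth limits ΔDL replicate 1 most.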
